A study of Mus musculus with 2 samples.

Results

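The 10 genes described here encode the machinery that couples excitation of a skeletal muscle fibre to its contraction: Ryr1, Cacna1s, Cacnb1, Jph1, Jph2, Jsrp1, Stac3, Trdn, Asph and Stim1. They were chosen by symbol, and each symbol matched 1 of the 53700 features counted in both libraries. RNA was sequenced from single nuclei of quadriceps, a thigh muscle made mostly of fast fibres, taken at 3 months of age from C57BL/6N mice. One group was wild type (WT), and the other was a PTRF knockout, lacking the gene now called Cavin1 for a protein that coats caveolae, small pits in the plasma membrane. Each genotype has 1 library, so the values describe these 2 libraries and no difference between them has a replicate check. The sources used here do not say how the deletion was made, or how many mice of which sex each library holds.

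In a muscle fibre the action potential runs down the transverse tubules, inward folds of the surface membrane that meet the sarcoplasmic reticulum at junctions called triads. There the voltage sensor in the tubule, a calcium channel complex built on the subunit encoded by Cacna1s, acts directly on the calcium release channel of the reticulum, encoded by Ryr1. Junctophilins hold both membranes together, triadin and junctin tie the release channel to the calcium buffer inside the reticulum, and Stim1 senses how much calcium the store still holds.

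Nuclei were grouped by which of 4 myosin heavy chain genes had the most unique molecular identifiers (UMIs, counted molecules) in the nucleus. Myh4, Myh1 and Myh2 mark the fast fibre types IIb, IIx and IIa, and Myh7 marks slow fibres. The Myh4-led group held 6729 WT and 4895 knockout nuclei, the Myh1-led group 1058 and 646, the Myh2-led group 682 and 313, and the Myh7-led group only 16 and 40. Levels are UMIs of a gene per 1000000 UMIs of the group (CPM), with exact 95% Poisson intervals, and ratios of knockout over WT carry exact 95% intervals. All these intervals cover counting error only. A gene with at least 20 UMIs was called lower or higher where the ratio passed 1.5-fold and its interval lay on the same side of no difference.

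The libraries differed in ways that touch every value below. The median nucleus held 703 UMIs in the WT and 1562 in the knockout library. Cavin1 itself was at 7.70 CPM in WT (interval 6.06 to 9.65, 75 UMIs) and at 0.125 CPM in the knockout (0.0151 to 0.450, 2 UMIs). All 12 pan-myonuclear transcripts, the general markers of muscle fibre nuclei, were detected in both libraries. All markers of the other cell types' lists were detected in both libraries as well. The summed pan-myonuclear level over the 3 fast groups was 79129 to 91266 CPM in WT and 61339 to 63281 CPM in the knockout, so the remainder of the transcriptome took a larger share in the knockout. The 6 adipocyte markers summed to 33.5 to 49.1 CPM over these groups in WT and to 131 to 242 CPM in the knockout. The summed mural, fibro-adipogenic, macrophage, endothelial and satellite cell markers overlapped between the libraries or were lower in the knockout. In total 24 barcodes occurred in both libraries.

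The promoter table held 5 of the 10 genes: Ryr1, Cacna1s, Cacnb1, Jph2 and Stim1. The windows of 3 of these are shown because, among the 5, Ryr1 was the one called between genotypes in the fast groups, and Jph2 and Stim1 were called between fibre types in opposite directions. Each is the 250 bases before a start site, 5′ to 3′ on the strand of the gene, from RefSeq on build GRCm38.p6. Capitals mark CANNTG, the E-box that MyoD-family factors bind among many others. It reads the same on both strands, so 1 search covered both.
Ryr1, chr7:29125152-29125401, minus strand: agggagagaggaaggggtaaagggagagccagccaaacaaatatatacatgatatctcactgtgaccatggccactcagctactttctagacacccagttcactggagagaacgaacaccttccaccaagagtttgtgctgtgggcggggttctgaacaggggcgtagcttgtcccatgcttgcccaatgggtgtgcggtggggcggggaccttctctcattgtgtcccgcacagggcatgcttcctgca
Jph2, chr2:163397994-163398243, minus strand: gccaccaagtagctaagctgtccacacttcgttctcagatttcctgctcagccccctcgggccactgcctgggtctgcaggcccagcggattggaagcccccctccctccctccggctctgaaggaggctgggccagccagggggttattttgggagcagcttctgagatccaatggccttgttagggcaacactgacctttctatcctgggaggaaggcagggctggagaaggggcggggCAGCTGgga
Stim1, chr7:102267569-102267818, plus strand: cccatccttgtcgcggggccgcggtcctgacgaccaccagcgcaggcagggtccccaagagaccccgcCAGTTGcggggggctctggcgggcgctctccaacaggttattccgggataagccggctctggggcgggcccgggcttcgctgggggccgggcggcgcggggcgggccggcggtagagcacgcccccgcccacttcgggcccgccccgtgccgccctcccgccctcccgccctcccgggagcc
The Ryr1 window held 0 matches to CANNTG, the Jph2 and Stim1 windows 1 each and the Cacna1s window 2. The windows at the 2 start sites of Cacnb1 held 0 and 1. Of all 32851 windows of this length, 66.2% held at least 1 match, the median was 1 match, and 31.8% held 2 or more. The MEF2-type motif CTANNNNTAG was in none of these windows and in 3.20% of all. The G and C content of the windows was 54.8% for Ryr1, 62.0% for Jph2 and 78.4% for Stim1.

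Ryr1, the calcium release channel of the sarcoplasmic reticulum, was lower in the knockout library in each group of fast nuclei. In Myh4-led nuclei it was at 4901 CPM in WT (4847 to 4956, 31557 UMIs) and at 2989 CPM in the knockout (2958 to 3021, 33874 UMIs), which is 1.64-fold lower (1.61 to 1.66). In Myh1-led nuclei it was at 3503 CPM in WT and at 2075 CPM in the knockout, 1.69-fold lower. In Myh2-led nuclei it was at 3327 CPM in WT and at 1927 CPM in the knockout, 1.73-fold lower. The highest knockout level was thus below the lowest WT level, whichever fast myosin led. In the few Myh7-led nuclei Ryr1 had 48 WT and 150 knockout UMIs and was again lower, by 1.23 on the log2 scale (interval of the log2 ratio -1.70 to -0.72). Ryr1 was the only member called lower in Myh4-led nuclei, where 25.4% of the 15340 genes tested were called lower and 0 members were called higher, against 11.6% of all genes. In Myh1-led nuclei it was again the only member called, against 7.48% of 8132 genes called lower and 13.6% called higher.

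**Figure D1:**
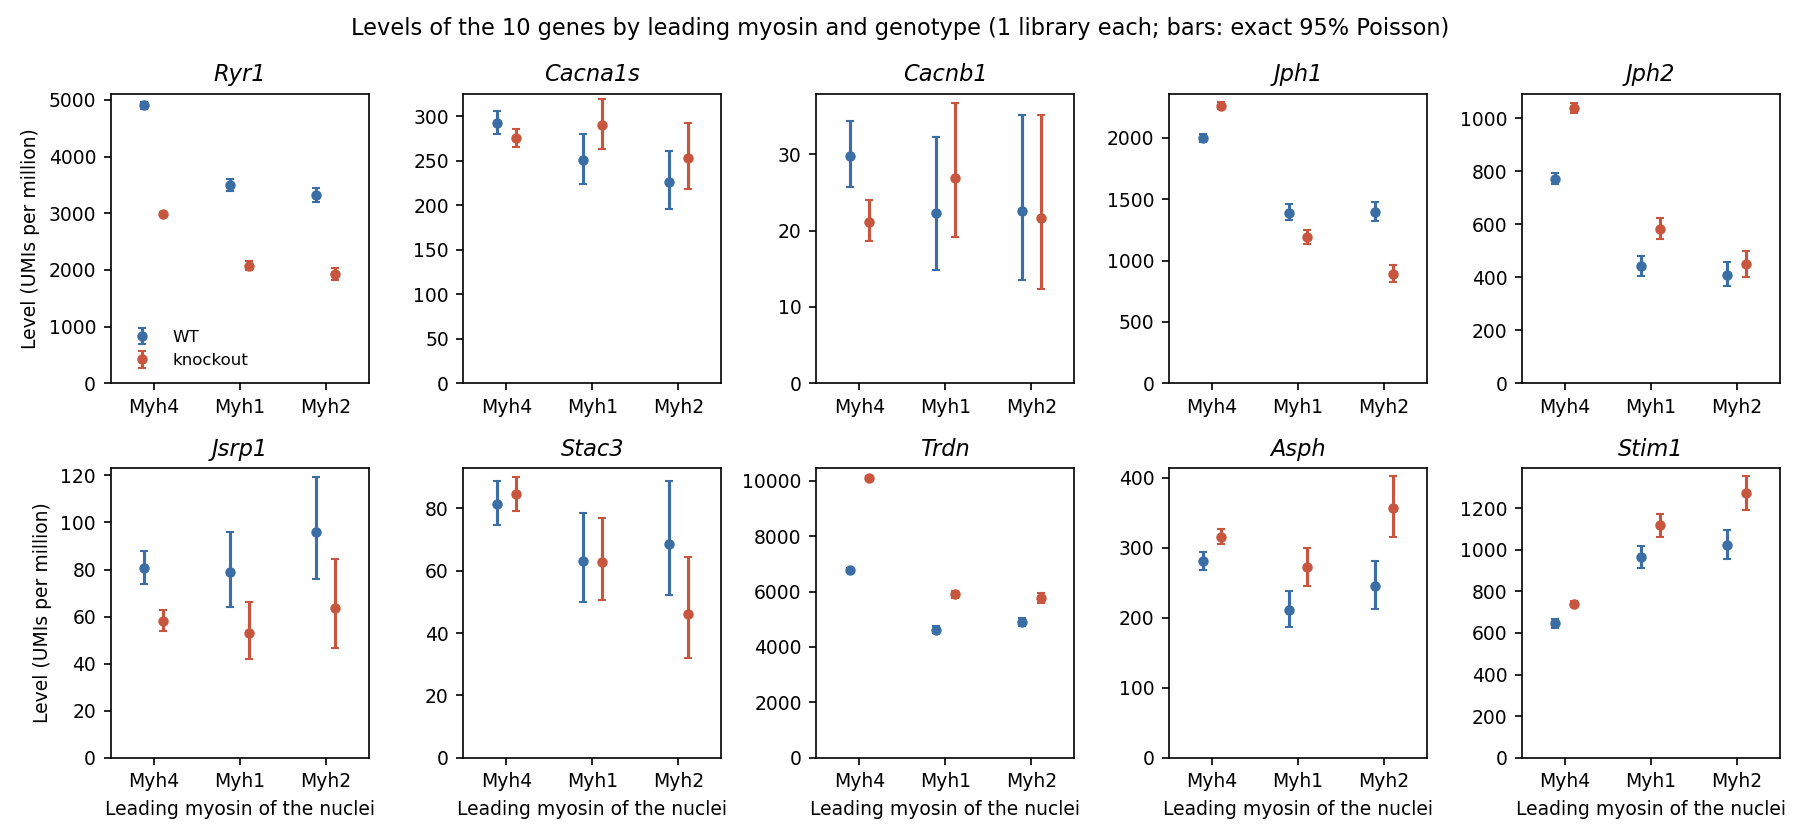
Level of each gene (vertical axis, CPM from 0, scale differs by panel) in nuclei led by Myh4, Myh1 or Myh2 in the WT (blue) and knockout (red) library; points are the library values and bars exact 95% Poisson intervals. Ryr1 was at 3327 to 4901 CPM in the WT groups and at 1927 to 2989 CPM in the knockout groups, while Trdn was above its WT level in each.

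The call on Ryr1 depended on what its UMIs were divided by and on which nuclei were used. Its log2 ratio in Myh4-led nuclei was -0.71 by total UMIs, -0.37 when scaled by the median of ratios over genes and -0.14 per UMI of the pan-myonuclear transcripts. With Rn18s (8.23% of WT and 2.94% of knockout UMIs), Malat1, Ttn and mitochondrial genes left out of the denominator it was -0.84. Under the 14 alternatives that keep the 1.5-fold rule, the interval lay below 0 in each fast group. The call held under 11 of 14 in Myh4-led, 11 of 14 in Myh1-led and 13 of 14 in Myh2-led nuclei. With Y-marked nuclei alone it was lost in Myh4-led (-0.57) and Myh1-led (-0.50) nuclei. With at least 1000 UMIs it was lost in Myh1-led nuclei (-0.57) and kept in Myh4-led nuclei (-0.60). Counted per nucleus with no scaling, Ryr1 gave 4.69 UMIs in WT and 6.92 in the knockout, against 957 and 2315 UMIs of all genes. A lower share of the RNA and a rise in the remainder cannot be told apart with these data.

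Detection of Ryr1 followed its level once depth was made equal. Thinned to 500 UMIs a nucleus and grouped again by leading myosin, 89.9% of 4904 WT and 74.8% of 3677 knockout Myh4-led nuclei held at least 1 Ryr1 UMI. Without thinning the shares were 95% and 94.1%, with median depths of 729 and 1809 UMIs. In Myh2-led nuclei the thinned shares were 79.0% of 504 and 64.2% of 226 nuclei. In 576 knockout nuclei with adipocyte markers and no myosin UMI, which should lack the transcript, the thinned share was 4.34% and the unthinned share 9.72% at a median of 1362 UMIs. In 46 WT nuclei of the same kind the thinned share was 30.4% (interval 17.7% to 45.8%), and over all 48 of them the unthinned share was 41.7% at a median of 922 UMIs. The background thus differed between the libraries, and the fast nuclei of each library were above its own.

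Cacna1s, Cacnb1 and Stac3, the members that form or act with the voltage sensor in the transverse tubule, did not pass the call in any fast group. Cacna2d1, a further subunit of the voltage sensor that is not a member, was called higher in Myh4-led nuclei and is described below. Cacna1s, the pore-forming and voltage-sensing subunit, was at 292 CPM in WT and at 275 CPM in the knockout in Myh4-led nuclei (log2 ratio -0.09, interval -0.17 to -0.0037). In Myh1-led and Myh2-led nuclei its WT levels were 250 and 226 CPM and its knockout levels 290 and 253 CPM, with both intervals reaching across no difference. The widest of these 3 differences was 1.16-fold, and the sign of the ratio in Myh4-led nuclei turned under 5 alternatives. Cacnb1, the intracellular beta subunit of the channel, was sparse, with 192 WT and 240 knockout UMIs in Myh4-led nuclei. WT nuclei of this group held it at 29.8 CPM and knockout nuclei at 21.2 CPM, with a log2 ratio of -0.49 (-0.77 to -0.21). In Myh1-led and Myh2-led nuclei it had 16 to 39 UMIs a library and intervals on both sides of no difference. Stac3, the adaptor protein that the voltage sensor needs to act on the release channel, was at 81.4 CPM in WT and at 84.5 CPM in the knockout in Myh4-led nuclei (log2 ratio 0.05, -0.10 to 0.21). That interval spans 0.932-fold to 1.16-fold. In Myh1-led nuclei its levels were 63.0 and 62.7 CPM. In Myh2-led nuclei Stac3 was at 68.7 CPM in WT and at 46.0 CPM in the knockout on 58 and 34 UMIs, with an interval of the log2 ratio from -1.23 to 0.06.

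Both junctophilins, which bridge the tubule and reticulum membranes, stood apart from each other. Jph2 was at 771 CPM in WT and at 1039 CPM in the knockout in Myh4-led nuclei (log2 ratio 0.43, 0.38 to 0.48), short of the call. Its Myh1-led values were 441 and 582 CPM (log2 ratio 0.40), and its Myh2-led values 410 and 448 CPM (0.13, interval -0.09 to 0.35). The sign of the Myh2-led ratio turned under both other scalings, to -0.064 with median of ratios scaling and to -0.0021 with Rn18s, Malat1, Ttn and mitochondrial genes left out of the denominator. Jph1 was at 1998 CPM in WT and at 2260 CPM in the knockout in Myh4-led nuclei (log2 ratio 0.18, 0.15 to 0.21). In Myh1-led nuclei it was at 1391 CPM in WT and at 1191 CPM in the knockout (-0.22, -0.32 to -0.13). In Myh2-led nuclei it was lower, at 1399 CPM in WT and at 892 CPM in the knockout (log2 ratio -0.65, -0.79 to -0.51). That call held under 12 of 14 alternatives and was lost with Y-marked nuclei alone (-0.44) and per pan-myonuclear UMI. The sign of the Jph1 difference thus turned between fibre groups, with intervals that do not overlap, and the difference between the groups was not tested across samples because there is 1 library per genotype. Between the knockout nuclei marked by Xist, the transcript of the inactive X chromosome, and the WT nuclei marked by Y-linked genes the sign did not turn, with log2 ratios of -0.48, -0.54 and -1.08 in Myh4-led, Myh1-led and Myh2-led nuclei. Per pan-myonuclear UMI its log2 ratio was 0.17 in Myh1-led nuclei and still below 0, at -0.32, in Myh2-led nuclei. Jph1, Ryr1 and Jsrp1 were the 3 members called lower in Myh2-led nuclei, where 6.06% of 6518 genes were called lower and 15.9% higher.

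**Figure D2:**
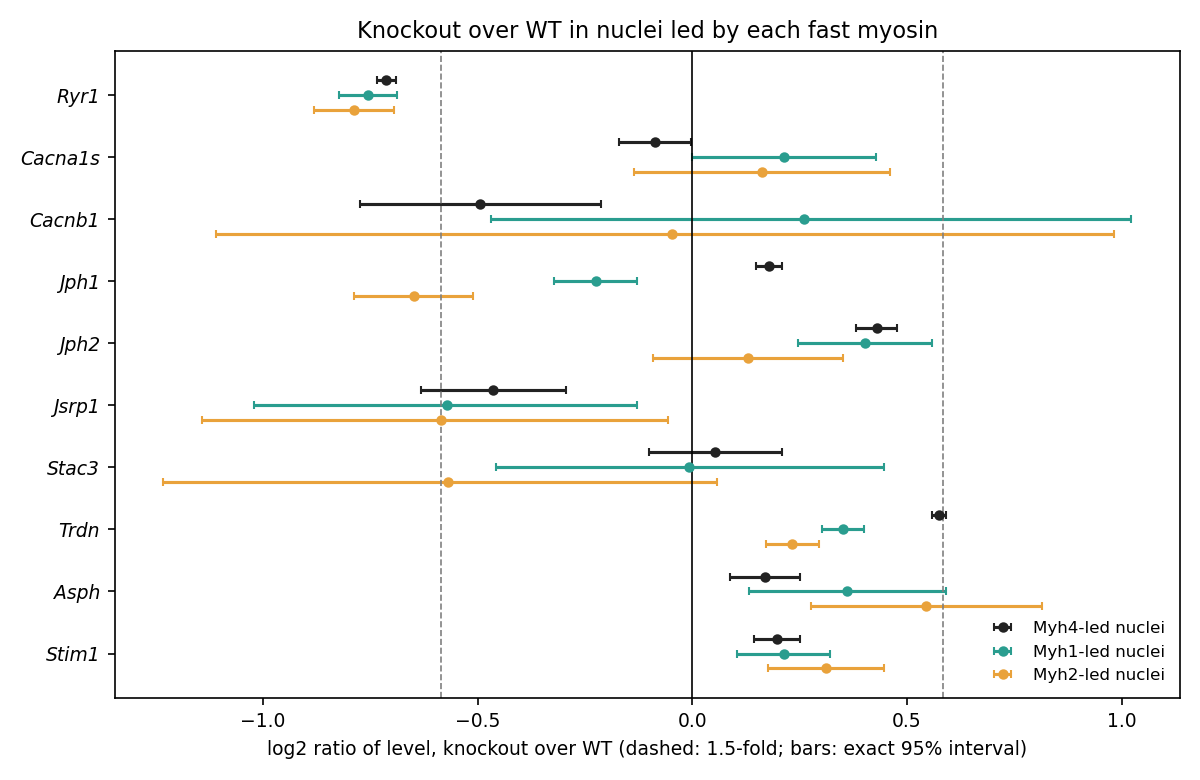
Log2 ratio of the level in the knockout over the WT library (horizontal axis) for each gene in nuclei led by Myh4 (black), Myh1 (green) or Myh2 (orange), with exact 95% intervals; the solid line marks no difference and the dashed lines 1.5-fold. Ryr1 lies left of the dashed line in each group, and Jph1 runs from 0.18 in Myh4-led to -0.65 in Myh2-led nuclei.

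Among the proteins of the junctional reticulum, Trdn and Jsrp1 lay on opposite sides of no difference. Trdn encodes triadin, which anchors the release channel to calsequestrin, the calcium buffer of the reticulum. It was the most abundant member, at 6790 CPM in WT and at 10115 CPM in the knockout in Myh4-led nuclei. Its ratio there, 1.49-fold (1.47 to 1.51, log2 ratio 0.57), was just short of the 1.5-fold call and passed it with nuclei thinned to 500 UMIs, with median of ratios scaling, without nuclei that held other cells' markers and per pan-myonuclear UMI. Other choices gave smaller log2 ratios: 0.40 in nuclei with at least 1000 UMIs and 0.46 in Y-marked nuclei. Between Xist-marked knockout and Y-marked WT nuclei it was 0.030 (-0.007 to 0.066). In Myh1-led nuclei Trdn was at 4621 CPM in WT and at 5895 CPM in the knockout, and in Myh2-led nuclei at 4900 and 5758 CPM, with log2 ratios of 0.35 and 0.23. Each of these intervals lay above 0. The Trdn interval stayed above 0 under 13 of 14 alternatives in Myh4-led, 14 in Myh1-led and 12 in Myh2-led nuclei. Jsrp1, a reticulum protein that binds both the voltage sensor and calsequestrin, was at 80.5 CPM in WT and at 58.3 CPM in the knockout in Myh4-led nuclei (log2 ratio -0.46, -0.63 to -0.30). In Myh1-led nuclei it was at 78.9 CPM on 99 UMIs in WT and at 53.1 CPM on 77 UMIs in the knockout (-0.57). In Myh2-led nuclei Jsrp1 was lower, at 95.9 CPM on 81 UMIs and 63.7 CPM on 47 UMIs (-0.59), a value on the edge of the call that held under 7 of 14 alternatives and gave a log2 ratio of 0.020 after thinning. Asph, whose transcripts encode junctin, junctate and an aspartyl hydroxylase that gene-level counts do not separate, was at 281 CPM in WT and at 316 CPM in the knockout in Myh4-led nuclei. It was at 212 and 272 CPM in Myh1-led and at 245 and 358 CPM in Myh2-led nuclei. Its log2 ratios in the 3 groups were 0.17, 0.36 and 0.54, in each case with the interval above 0 and none past the call.

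Stim1, the calcium sensor of the reticulum that opens store-operated entry, was at 646 CPM in WT and at 740 CPM in the knockout in Myh4-led nuclei (log2 ratio 0.20, 0.14 to 0.25). It was at 964 and 1117 CPM in Myh1-led nuclei (0.21) and at 1025 and 1272 CPM in Myh2-led nuclei (0.31). The 3 intervals lay above 0 and none of these ratios passed the call. In Myh7-led nuclei Stim1 had 3 WT and 107 knockout UMIs and was called higher (log2 ratio 2.08, 0.71 to 4.60), where 7.21% of the 1013 genes tested were called higher and 3.26% lower. With 16 WT nuclei that ratio rests on a handful of molecules. Only 6 members reached 20 UMIs in that group.

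As a set, the 10 genes lay near the middle of the transcriptome. Their median log2 ratio was 0.11 in Myh4-led nuclei, against -0.07 over all genes tested and 0.19 over the 4848 genes at 20 CPM or more, of which 333 were called lower and 855 higher. It was 0.21 in Myh1-led nuclei (all genes 0.14) and 0.04 in Myh2-led nuclei (all genes 0.19). By interval alone, 5 members lay above and 4 below no difference in Myh4-led nuclei, where 23.4% of all genes lay above and 31.3% below. In Myh1-led nuclei 4 lay above and 3 below (all genes 21.5% and 9.9%), and in Myh2-led nuclei 3 above and 3 below (21.6% and 8.35%). All genes also differed with their length: in Myh4-led nuclei 47.9% of the genes over 92.4 kb were called lower, and 10.9% of those at 20 CPM or more. Ryr1, Jph1, Trdn, Asph and Stim1 are in that length group, on both sides of no difference.

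**Figure D3:**
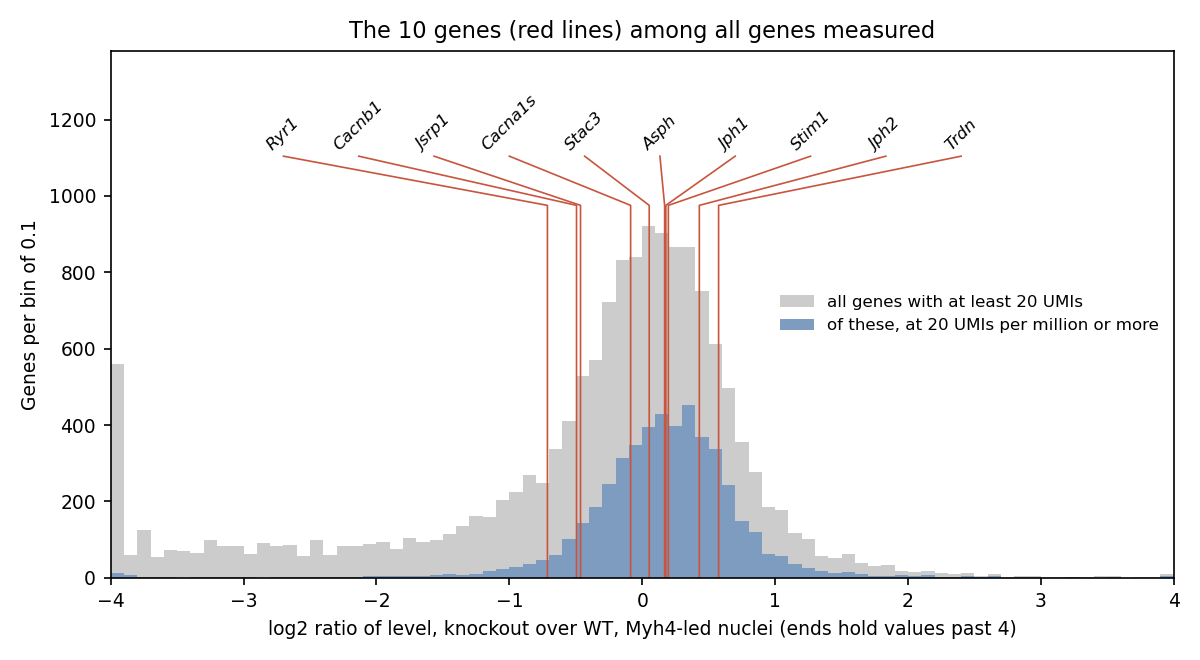
Number of genes (vertical axis, bins of 0.1) by log2 ratio of knockout over WT in Myh4-led nuclei (horizontal axis), for all 15340 genes with at least 20 UMIs (grey) and those at 20 CPM or more (blue); red lines mark the 10 genes. Their values run from -0.71 for Ryr1 to 0.57 for Trdn, with Ryr1 in the left flank of the blue distribution, where 333 of 4848 genes were called lower and 855 higher.

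Per length, the order of the members differed from the order by CPM. With CPM divided by gene length in kb, Ryr1 led in WT Myh4-led nuclei at 40.2, followed by Trdn at 17.1, Jsrp1 at 16.1, Jph1 at 15.0, Jph2 at 12.5 and Stac3 at 11.4. Cacna1s at 4.36, Stim1 at 3.81, Cacnb1 at 1.39 and Asph at 1.27 were far below these. In the knockout Trdn led at 25.5, with Ryr1 at 24.5, Jph1 at 17.0 and Jph2 at 16.8. Ryr1 thus led in WT and Trdn in the knockout. By their counting intervals, Jsrp1 could not be told from Trdn or Jph1, Jph2 from Stac3, or Cacnb1 from Asph in WT, nor Jph1 from Jph2 in the knockout. Trdn lies at chr10:33080554-33476709 and Ryr1 at chr7:29003344-29125179, in GRCm38 coordinates, spans of 396 and 122 kb, whereas Jsrp1 (chr10:80808496-80813498) spans 5.00 kb. Gene length here includes introns, and the sources used here do not say whether introns were counted.

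The balance of Ryr1 and Trdn can be read without any scaling. In Myh4-led nuclei Ryr1 made up 30.9% of the UMIs of the 10 genes in WT and 16.7% in the knockout, while Trdn made up 42.8% and 56.5%. In WT there were 1.39 Trdn UMIs per Ryr1 UMI (1.37 to 1.41) and in the knockout 3.38 (3.34 to 3.42). The same ratio was 1.32 in WT and 2.84 in the knockout in Myh1-led nuclei, and 1.47 and 2.99 in Myh2-led nuclei. Over the 10 choices of nuclei tried and the 3 fast groups, it ran from 1.12 to 1.77 in WT and from 2.71 to 3.48 in the knockout, with no overlap. None of these choices took out background RNA, which differed between the libraries. Nuclei with adipocyte markers and no myosin UMI held 31 Ryr1 and 24 Trdn UMIs in WT. In the knockout such nuclei held 67 and 132. WT nuclei with fibro-adipogenic markers and no myosin UMI held 59 and 71. How far background weighed in the ratio was not tested. The ratio moved with depth within WT: in Myh4-led nuclei with at least 1000 UMIs it was 1.71. It was chosen after the levels were seen and carries no test.

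**Figure D4:**
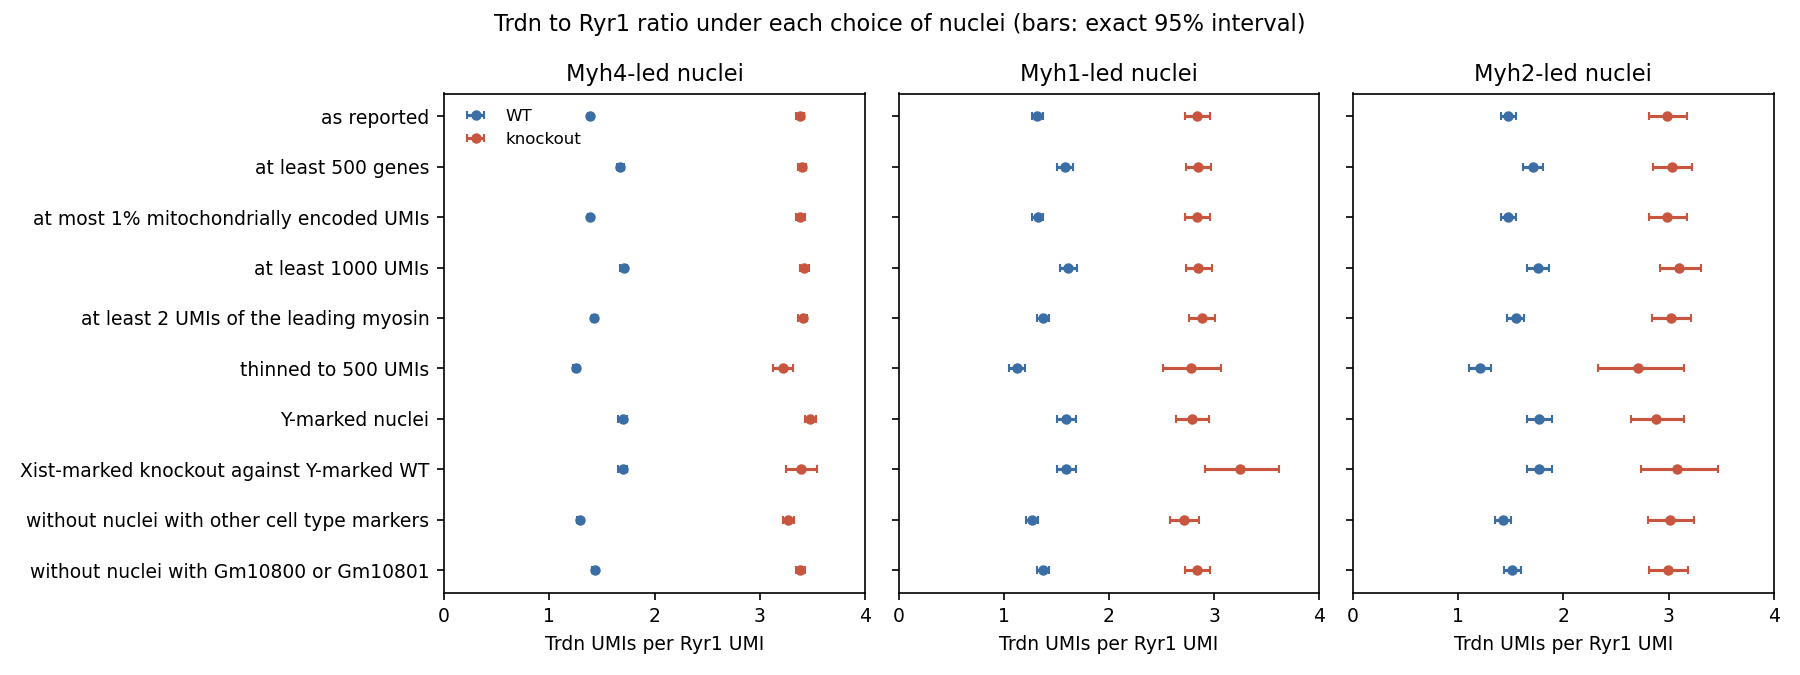
Trdn UMIs per Ryr1 UMI (horizontal axis, from 0) in the WT (blue) and knockout (red) library for each fast group and each choice of nuclei, with exact 95% intervals for counting error. WT values run from 1.12 to 1.77 and knockout values from 2.71 to 3.48 across the panels.

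The same balance can be read nucleus by nucleus. After thinning each nucleus to 500 UMIs, Trdn UMIs outnumbered Ryr1 UMIs in 50.7% of WT and 83.4% of knockout Myh4-led nuclei. Ryr1 outnumbered Trdn in 34.2% and 7.29%. In Myh1-led nuclei Trdn outnumbered Ryr1 in 43.3% of WT and 71.1% of knockout nuclei, and in Myh2-led nuclei in 48.0% and 69.9%. Nuclei of 1 library are not replicates, so these shares describe the spread within each library.

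Several members differed between fibre types in both libraries. Jph2 was higher in Myh4-led than in Myh1-led nuclei by 1.75-fold in WT and 1.78-fold in the knockout, and higher than in Myh2-led nuclei by 1.88-fold and 2.31-fold. It was the only member called higher in both WT contrasts, where 8.48% and 9.22% of all genes were called higher. Stim1 ran the other way. In Myh4-led nuclei it was lower than in Myh2-led nuclei in WT (log2 ratio -0.67) and in the knockout (-0.78). Against Myh1-led nuclei its log2 ratios were -0.58 in WT, just short of the call, and -0.59 in the knockout, past it. Called lower were 8.15% of all genes against Myh1-led and 9.59% against Myh2-led nuclei in WT, and 12.7% and 13.9% in the knockout. Ryr1 was 1.40-fold and 1.47-fold above its Myh1-led and Myh2-led levels in WT, both short of the call. Jsrp1 and Cacnb1 had intervals across no difference in both WT contrasts.

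The spread between fibre types was wider in the knockout for Jph1 and Trdn. Against Myh2-led nuclei it was also wider for Jph2, at 1.88-fold in WT and 2.31-fold in the knockout, and for Stac3, at 1.18-fold and 1.81-fold. Jph1 in Myh4-led nuclei was 1.44-fold and 1.43-fold its Myh1-led and Myh2-led levels in WT, short of the call, and higher by 1.90-fold and 2.53-fold in the knockout. Trdn was 1.47-fold and 1.39-fold in WT, short of the call, and higher by 1.72-fold and 1.76-fold in the knockout. In the knockout, Ryr1 and Stac3 were also called higher in Myh4-led than in Myh2-led nuclei, by 1.55-fold and 1.81-fold. In the knockout contrasts 7.13% of all genes were called higher against Myh1-led nuclei and 6.75% against Myh2-led nuclei. Whether the fibre contrast differs between the genotypes was not tested, since each has 1 library. The leading myosin had 1 UMI in 23.6% of WT and 11.9% of knockout Myh4-led nuclei, so the groups may be less pure in WT.

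Markers of other cells differed between the libraries in these nuclei, and the ratios were also taken without the nuclei that held them. In Myh4-led nuclei 5 of the 6 adipocyte markers were called higher in the knockout. The other lists were called lower more often than higher: 4 of 4 satellite cell, 6 of 9 endothelial, 5 of 7 mural, 4 of 8 macrophage and 2 of 9 fibro-adipogenic markers were lower, and 1 endothelial and 1 fibro-adipogenic marker higher. The summed mural level was nevertheless higher in the knockout, at 398 CPM against 333 CPM in WT, with 1 of the 7 markers above its WT level. At least 2 UMIs of other cell types' markers were held by 38.5% of knockout and 16.8% of WT nuclei, at median depths of 1809 and 729 UMIs. Thinned to 500 UMIs the shares were 8.16% (interval 7.29% to 9.09%) and 7.20% (6.49% to 7.96%), which overlap. A UMI of the repeat-rich transcripts Gm10800 or Gm10801 was held by 3.78% of knockout and 19.8% of WT nuclei, and by 1.28% and 13.3% after thinning. Without the nuclei with other cells' markers, the log2 ratio in Myh4-led nuclei was -0.69 for Ryr1 and 0.66 for Trdn. This choice left out more of the deeper knockout library and kept any background RNA in the other nuclei. It therefore does not measure how much RNA of other cells weighed in the ratios. Without the nuclei with the repeat-rich transcripts the log2 ratio was -0.71 for Ryr1 and 0.53 for Trdn.

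Nuclei with no myosin UMI and with at least 2 marker genes of another cell type show how far muscle transcripts spread into other nuclei. In the 576 knockout nuclei with adipocyte markers, Ryr1 was at 2.17% of its Myh4-led level, Trdn at 1.27%, Jph2 at 0.934%, Jph1 at 3.05% and Cacna1s at 5.29%. Ttn, the titin gene of the sarcomere, was at 1.22% there. Trdn and Jph2 were thus close to Ttn, while Ryr1, Jph1 and Cacna1s were above it. Cacnb1 at 13.7%, Stac3 at 5.74% and Jsrp1 at 1.66% rested on 3, 5 and 1 UMIs. Asph was at 159% of its Myh4-led level in these nuclei and Stim1 at 56.0%. In the 300 nuclei with fibro-adipogenic markers, Asph was at 79.5%, Stim1 at 49.2% and Ryr1 at 5.09%. Asph and Stim1 were thus not confined to muscle nuclei in these data, and without the Myh4-led nuclei that held other cells' markers their log2 ratios of knockout over WT were 0.22 and 0.26. The WT library gave fewer such nuclei and a higher background. Ryr1 was at 12.3% in 48 nuclei with adipocyte markers and at 25.9% in 67 with fibro-adipogenic markers. Trdn was at 6.85% and 22.5% in the same nuclei.

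**Figure D5:**
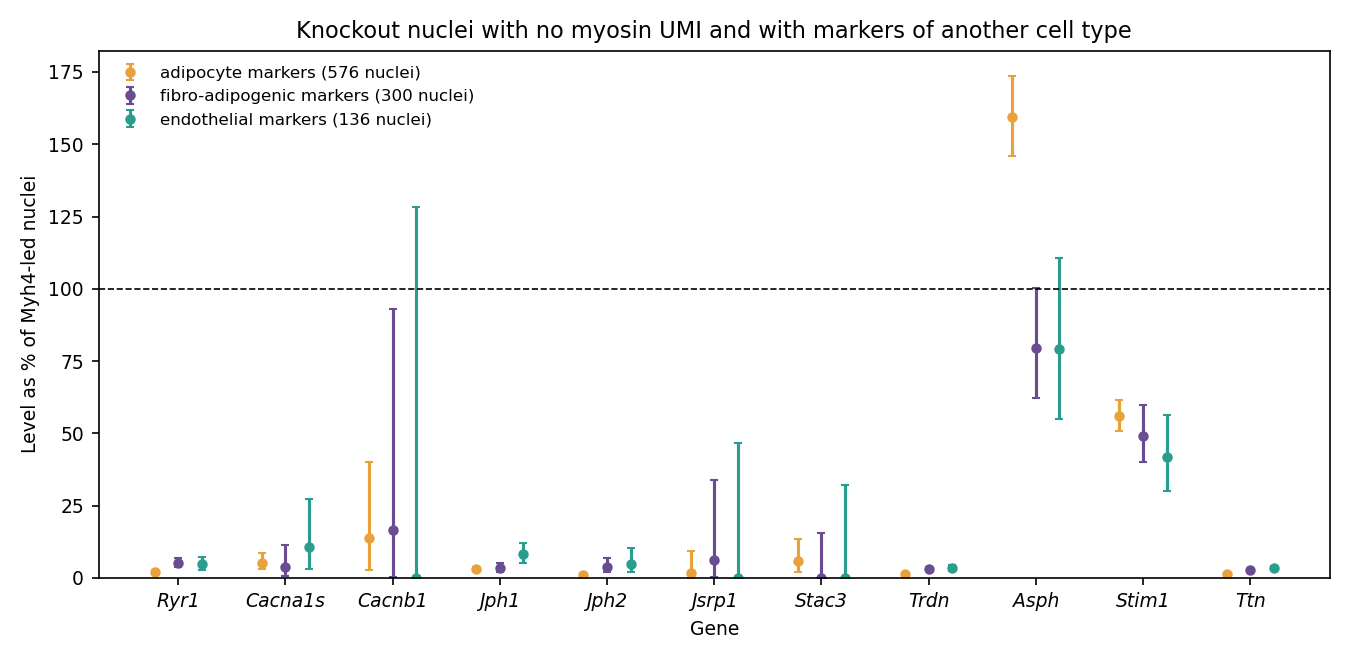
Level of each gene, and of Ttn, in knockout nuclei with no myosin UMI and with markers of adipocytes (orange), fibro-adipogenic cells (purple) or endothelial cells (green), as percent of the knockout Myh4-led level (vertical axis, dashed line at 100%), with exact 95% Poisson intervals. Asph is at 79.2% to 159% and Stim1 at 41.8% to 56.0%, while Ryr1 and Trdn are at 1.27% to 5.09%.

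Junction nuclei, those led by a myosin with at least 2 marker genes of the neuromuscular or the myotendinous junction and fewer than 2 UMIs of other cells' markers, carried the members too. The myotendinous markers were Col22a1, Tigd4, Adamts20, Itgb1 and Lama2. Nuclei of that set had median depths of 938 UMIs in WT and 2245.5 in the knockout, against 729 and 1809 in Myh4-led nuclei. Whether they include ordinary fibre nuclei was not tested. In the 542 knockout myotendinous nuclei Ryr1 was at 95.8%, Trdn at 97.9% and Jph2 at 103% of the Myh4-led level. In the 78 knockout neuromuscular nuclei they were at 84.4%, 91.1% and 89.1%. The same sets held 134 and 39 nuclei in WT, with Ryr1 at 78.5% and 66.9% and Trdn at 80.6% and 66.0%. The order of the genotypes was that of the Myh4-led nuclei. In myotendinous nuclei Ryr1 was at 3846 CPM in WT and at 2865 CPM in the knockout, and Trdn at 5470 and 9902 CPM. Of all nuclei led by a myosin, 6729 of 8485 in WT and 4895 of 5894 in the knockout were Myh4-led. The junction sets may thus share nuclei with that group, and the same order there is no separate result.

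The knockout library held nuclei of both sexes, while the WT library held 2 Xist-marked nuclei led by a myosin. Of the nuclei led by a myosin, 783 in the knockout held Xist and no Y-linked UMI, whereas 2796 in the knockout and 2397 in WT held a Y-linked UMI and no Xist. Among Myh4-led nuclei, Ryr1 was at 4580 CPM in Y-marked WT, 3075 CPM in Y-marked knockout and 2336 CPM in Xist-marked knockout nuclei. Both knockout sets were below WT. Trdn was at 7765, 10696 and 7926 CPM in the same order. Among these Myh4-led nuclei its excess over WT thus stood in the Y-marked knockout nuclei and not in the Xist-marked ones. The Y-marked WT level was itself above the 6790 CPM of all WT Myh4-led nuclei. In Myh1-led nuclei the log2 ratio of Trdn between Xist-marked knockout and Y-marked WT nuclei was 0.17, with its interval above 0. Among Myh4-led nuclei, in the same order, Jph1 was at 2160, 2429 and 1544 CPM and Jph2 at 797, 992 and 1198 CPM. Trdn UMIs per Ryr1 UMI nevertheless stayed far apart between the genotypes in both sets, as the plot of that ratio shows. With Y-marked nuclei alone the log2 ratio of Ryr1 was -0.57, just short of the call. The Xist-marked and Y-marked knockout nuclei also differed in depth, with medians of 1604 and 2364 UMIs, and sex and individual animal cannot be told apart.

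Of 16 further genes of the triad and of store-operated entry, 2 were called higher and 1 lower in Myh4-led nuclei, against 11.6% of all genes called higher and 25.4% lower, and their median log2 ratio was 0.09. In Myh1-led nuclei 3 of 15 tested were called higher (Cacng1, Sypl2 and Cav3) and 1 lower (Saraf), against 13.6% and 7.48% of all genes. In Myh2-led nuclei 2 of 15 were called higher (Sypl2 and Cav3) and 0 lower, against 15.9% and 6.06%. Cacna2d1, the alpha2-delta subunit of the voltage sensor, rose from 1418 CPM in WT to 2404 CPM in the knockout (log2 ratio 0.76, 0.73 to 0.80). Homer1, a scaffold protein that binds the release channel, rose from 262 to 459 CPM (0.81, 0.73 to 0.89). In nuclei with at least 1000 UMIs the log2 ratio of Homer1 was 0.52 and no longer passed. Homer2 fell from 12.0 to 3.44 CPM on 77 and 39 UMIs. The calls on Cacna2d1, Homer1 and Homer2 were lost between Xist-marked knockout and Y-marked WT nuclei, and none of the 3 was called in Myh1-led or Myh2-led nuclei. Orai1, the surface channel that Stim1 opens, was at 88.1 CPM in WT and at 89.1 CPM in the knockout (log2 ratio 0.02, -0.13 to 0.17). Bin1 and Cav3, which shape the transverse tubules, had log2 ratios of 0.16 and -0.07 in Myh4-led nuclei. Cav3 rose from 9.56 to 22.05 CPM in Myh1-led nuclei (12 and 32 UMIs, log2 ratio 1.17, 0.21 to 2.30) and from 8.29 to 35.2 CPM in Myh2-led nuclei (7 and 26 UMIs, 2.01, 0.84 to 3.53). Tmem38a, a counter-ion channel of the reticulum, was at 463 CPM in WT and at 379 CPM in the knockout (log2 ratio -0.29).

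Relatives of the members or of Orai1, many of them serving mainly in heart, smooth muscle or neurons, formed a second list. The list also held Stim2, Orai2 and Orai3. Of its 14 genes, 11 reached 20 UMIs in Myh4-led nuclei. In Myh4-led nuclei 6 of these fell: Ryr2, Ryr3, Cacna1c, Cacna1d, Cacnb2 and Stac. Their log2 ratios ran from -3.06 for Cacna1d to -1.38 for Cacna1c, and none of the list was called higher. Over all genes tested in these nuclei, 25.4% were called lower and 11.6% higher. In Myh1-led nuclei 4 of 6 tested were called lower and 0 higher, against 7.48% and 13.6% of all genes. In Myh2-led nuclei 1 of 3 was called lower and 0 higher, against 6.06% and 15.9%. The 6 genes called in Myh4-led nuclei were rare in both libraries. There Ryr2, the cardiac release channel, was at 24.5 CPM in WT on 158 UMIs and at 3.71 CPM in the knockout on 42 UMIs. Without the nuclei with other cells' markers the log2 ratio of Ryr2 was -2.95 and that of Cacna1c -2.99. Between Xist-marked knockout and Y-marked WT nuclei the calls on Ryr2 (-0.66, -1.71 to 0.21) and Cacna1d (-0.49, -2.03 to 0.70) were lost and Stac was under 20 UMIs, while Ryr3, Cacna1c and Cacnb2 were still called lower. Stac is 129 kb long and the other 5 genes 385 to 609 kb. All 6 are thus in the length group in which 47.9% of all genes were called lower. Among the genes of that group with a level of 20 CPM or more, only 10.9% were. Cacna1c was the most abundant of the 6, with Myh4-led levels of 50.9 (WT) and 19.5 CPM (knockout). The smaller share may therefore be the closer comparison for Cacna1c. Stim2, the second calcium sensor, was at 233 CPM in WT and at 348 CPM in the knockout (log2 ratio 0.58), at the edge of the call.

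The genes whose pattern was most like the summed level of the 10 members were found over the 6 pools of library and fast group. The sum was 15872, 11547 and 11719 CPM in WT and 17899, 11566 and 11040 CPM in the knockout in Myh4-led, Myh1-led and Myh2-led nuclei. Among 4576 genes with at least 500 UMIs, Ddx17 had the highest Pearson correlation with it (r = 0.995), followed by Ampd1 (0.994), Cadm1 (0.993), Tbl1x (0.991) and Dcaf5 (0.991). The sum does not stand for each member: r with it was 0.939 for Jph2, 0.916 for Jph1, 0.879 for Trdn, 0.836 for Stac3, 0.517 for Ryr1, 0.509 for Cacna1s, 0.262 for Asph, 0.0879 for Cacnb1, -0.144 for Jsrp1 and -0.894 for Stim1. Each member is itself part of that sum. In Myh4-led nuclei Trdn alone made up 42.8% of it in WT and 56.5% in the knockout. The pools of a library also share their depth and denominator, so these values are descriptions. Ampd1, the AMP deaminase of skeletal muscle, was at 747, 302 and 336 CPM in WT and at 866, 318 and 272 CPM in the knockout in the same order of groups. Ampd1 was chosen by its likeness to the sum over these same pools. That it too was highest where Myh4 led in both libraries is therefore no separate result.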

How the data were processed

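Nuclei of quadriceps muscle from WT and Cavin1 knockout mice were sequenced on the 10x Genomics platform, 1 library each. The deposited values are raw counts of UMIs per gene and barcode, which the authors made, per the file headers, with Cell Ranger 6.0.0. STAR, Seurat 4.1.1 and the builds mm10 and GRCm38 are named in the submitters' processing notes. The sources used here do not state the use of introns or strand or how barcodes were called.

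Nuclei needed 200 genes or more and no more than 5% of UMIs from mitochondrially encoded genes, which kept 10272 of 10280 in WT and 7762 of 7766 in the knockout. Each was assigned to the gene with most UMIs among Myh1, Myh2, Myh4 and Myh7. Ties (390 WT, 78 knockout) and nuclei with no myosin UMI (1397 and 1790) were left out of the groups. In Myh4-led nuclei the leading myosin had 1 UMI in 23.6% of WT and 11.9% of knockout nuclei. No doublet caller was run, and 150 knockout Myh4-led nuclei held Xist and Y-linked UMIs. UMIs were summed per library and group and divided by the total of the group. Ratios had 0.5 UMI added and exact conditional binomial intervals, shares exact Clopper-Pearson intervals, all at 95% and for counting error only. With 1 library per genotype no test between genotypes was made. Comparisons of detection used nuclei thinned to 500 UMIs, which left out 2055 shallower WT nuclei and 0 of the knockout. The calculation was tested on simulated data.

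Genes were named by rule: the 10 members, the genes of both further lists called in Myh4-led nuclei, and the 5 genes most like the members' sum. Bin1, Cacng1, Cav3, Orai1, Saraf, Stim2, Sypl2 and Tmem38a were named after their values were seen. The members and lists were chosen with earlier results of these data known. Coordinates and lengths are from the GENCODE annotation of GRCm38, matched by gene ID. There, 3 members overlap another gene on their own strand (Ryr1, Cacna1s and Trdn) and 4 more on the opposite strand only (Cacnb1, Jph1, Asph and Stim1), so some of their UMIs may come from the other gene. In all, 14 other settings varied filters, depth, denominator, scaling, the fold of a call and the choice of sex-marked nuclei, and 1 more, the pan-myonuclear denominator, was chosen after seeing the data. Python 3.11.15 with numpy 2.4.6, scipy 1.17.1 and pandas 2.3.3 was used.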

Additional observations from a re-analysis of the deposited data

Results flagged for a closer look

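Jph1 differed from its WT level in opposite directions between fibre groups. Its log2 ratio of knockout over WT was 0.18 in Myh4-led nuclei, -0.22 in Myh1-led nuclei and -0.65 in Myh2-led nuclei. The difference between the groups was not tested, because each genotype has 1 library. The order of the groups was the same in Y-marked nuclei, with 0.17, -0.11 and -0.44, and in nuclei with at least 1000 UMIs, with 0.09, -0.26 and -0.73. Between Xist-marked knockout and Y-marked WT nuclei Jph1 was below 0 in each group, with -0.48, -0.54 and -1.08, so that the direction did not turn. Per pan-myonuclear UMI it was 0.75, 0.17 and -0.32, and the Myh1-led value changed sign.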

How the results depend on the processing

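Of 492 recomputed log2 ratios, 38 changed sign: 12 where the reported interval lay on 1 side of 0 and 26 where it spanned 0. The median log2 ratio of the 10 genes in Myh4-led nuclei, 0.11, was -0.016 with Rn18s, Malat1, Ttn and mitochondrial genes left out of the denominator, 0.46 with median of ratios scaling, -0.053 between Xist-marked knockout and Y-marked WT nuclei, and 0.68 per pan-myonuclear UMI; per pan-myonuclear UMI it was 0.61 in Myh1-led and 0.37 in Myh2-led nuclei. The count called lower in Myh4-led nuclei, 1, was 3 with that denominator and 0 with median of ratios scaling, Y-marked nuclei, a 2-fold call or pan-myonuclear UMIs. The count called higher, 0, was 1 after thinning, between Xist-marked and Y-marked nuclei and without nuclei with other cells' markers, 2 with median of ratios scaling and 6 per pan-myonuclear UMI.

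Among ratios in Myh4-led nuclei, the sign changed for Cacna1s (0.030 thinned, 0.26 median of ratios, 0.39 Xist against Y, 0.015 without other markers, 0.49 pan-myonuclear), Cacnb1 (0.14 Xist against Y, 0.079 pan-myonuclear), Jph1 (-0.48 Xist against Y), Stim1 (-0.14 Xist against Y), Jsrp1 (0.11 pan-myonuclear) and Stac3 (-0.35 Xist against Y, -0.074 with that denominator, -0.0048 at 1000 UMIs or more). Jph1 was at 0.17 in Myh1-led nuclei per pan-myonuclear UMI and Jsrp1 at 0.020 in Myh2-led nuclei after thinning; the cause was not tested.

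Median of ratios scaling moved every log2 ratio in Myh4-led nuclei by 0.35 upward and the split of all genes from 25.4% lower and 11.6% higher to 19.7% and 27.8%. Per pan-myonuclear UMI it was 17.1% and 40.7%. No paired analysis was possible because there is 1 library per genotype. Myh7-led nuclei and Cacnb1 were limited by depth.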
